A study of Mus musculus with 18 samples.

Results

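RNA from the apex of infarcted mouse hearts was compared between treatment with DCA and vehicle among the 8 most strongly affected hearts of the series, 3 given DCA and 5 given vehicle, out of 12 infarcted hearts and 18 hearts in all. The hearts were chosen by a measured value: the FPKM (fragments scaled to transcript length and to the mapped reads of the library) of Acadm, the medium-chain acyl-CoA dehydrogenase of fatty acid oxidation, had to lie below 400. The purpose of the choice is to compare treatments at a similar extent of injury. All mice were C57BL/6, an inbred laboratory strain, and each library holds RNA from the frozen heart apex 1 day after surgery. The vehicle hearts of the comparison had a myocardial infarction (MI) and received vehicle, and carry the replicate numbers 1, 2, 3, 5 and 6. The DCA hearts had the same operation and received DCA at 10 mg/kg per day, and carry the numbers 2, 4 and 6. Sham-operated hearts given vehicle, 6 in number, and the 4 infarcted hearts above the limit (vehicle 4 and DCA 1, 3 and 5) are given beside them. No genotype or transgene is named in the labels. Whether the libraries are from different mice is not said in the labels; the p-values below therefore reflect the spread among these samples, part of which may be technical.

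DCA is not written out in the labels and is read here as deoxycholic acid, which gut bacteria make from primary bile acids, because the title joins it with TGR5. TGR5, encoded by Gpbar1, is a membrane receptor for bile acids that raises cyclic AMP in the cell and is known for dampening cytokine production in macrophages. After the closure of a coronary artery, cardiomyocytes die within hours, neutrophils and then monocytes enter the muscle, and fibroblasts begin to lay down matrix. The apex holds a variable mixture of dying, bordering and spared muscle, so that hearts of one group can differ widely in how much injured tissue was sampled. In bulk tissue, fewer cells of a type and less RNA per cell cannot be told apart.

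Acadm, whose values chose the hearts and are given as a description only, stood at 187.62, 195.52, 293.31, 311.94 and 140.93 FPKM in vehicle hearts 1, 2, 3, 5 and 6. In DCA hearts 2, 4 and 6 it stood at 208.08, 374.5 and 251.96 FPKM. The means were 226 ± 73.4 (SD, n = 5) and 278 ± 86.3 (SD, n = 3), and the 2 groups overlapped. DCA heart 4, at 374.5, was the heart just inside the limit, and DCA heart 5, at 436.32, the one just outside. Vehicle heart 4 (520.51) and DCA hearts 1 and 3 (510.02 and 500.73) lay further out, near the sham range of 535.72 to 679.67. The limit was set on a value measured after treatment, so the comparison holds for hearts chosen in this way and does not replace the comparison of all treated hearts.

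Genes that the choice did not name separated the same hearts. Over 17 genes of cardiac stress, such as the natriuretic peptides Nppa and Nppb and the titin-binding Ankrd1, the mean log2(FPKM + 1) was 8.21 to 9.30 in the vehicle hearts below the limit and 9.10 to 9.34 in the DCA hearts below it. It was 7.13 in vehicle heart 4, 6.22 to 6.85 in the DCA hearts above the limit and 5.54 to 6.35 in the sham hearts. DCA heart 4, the member nearest to the limit by Acadm, was at 9.10 and so among the strongly affected hearts by its stress genes. Not every list placed this heart alike. Its fibroblast markers, with a mean of 4.58, were apart from the DCA hearts above the limit (5.52 to 5.64). Its markers of infiltrating monocytes and macrophages, at 3.55, lay among those hearts (3.04 to 3.86). The mean of 24 cardiomyocyte markers, on the same scale, was 9.79 to 10.35 and 9.88 to 10.55 in the 2 groups below the limit. DCA heart 4 held the 10.55, near the 10.69 to 10.77 of the DCA hearts above the limit. The sham hearts stood at 10.78 to 10.90. In the 2 groups below the limit, the mean of 24 genes of fatty acid oxidation was 6.35 to 7.21 and 6.54 to 7.19. That of 30 genes of oxidative phosphorylation was 8.43 to 8.96 and 8.52 to 9.08. These last lists go with Acadm, by which the hearts were chosen, so their values are a description and support nothing. Heart muscle was the source in all 8 libraries by its markers: Tnnt2, cardiac troponin T, stood between 4951.04 and 8428.03 FPKM, and 0 of 7 adipocyte markers passed the filter on low values.

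**Figure D1:**
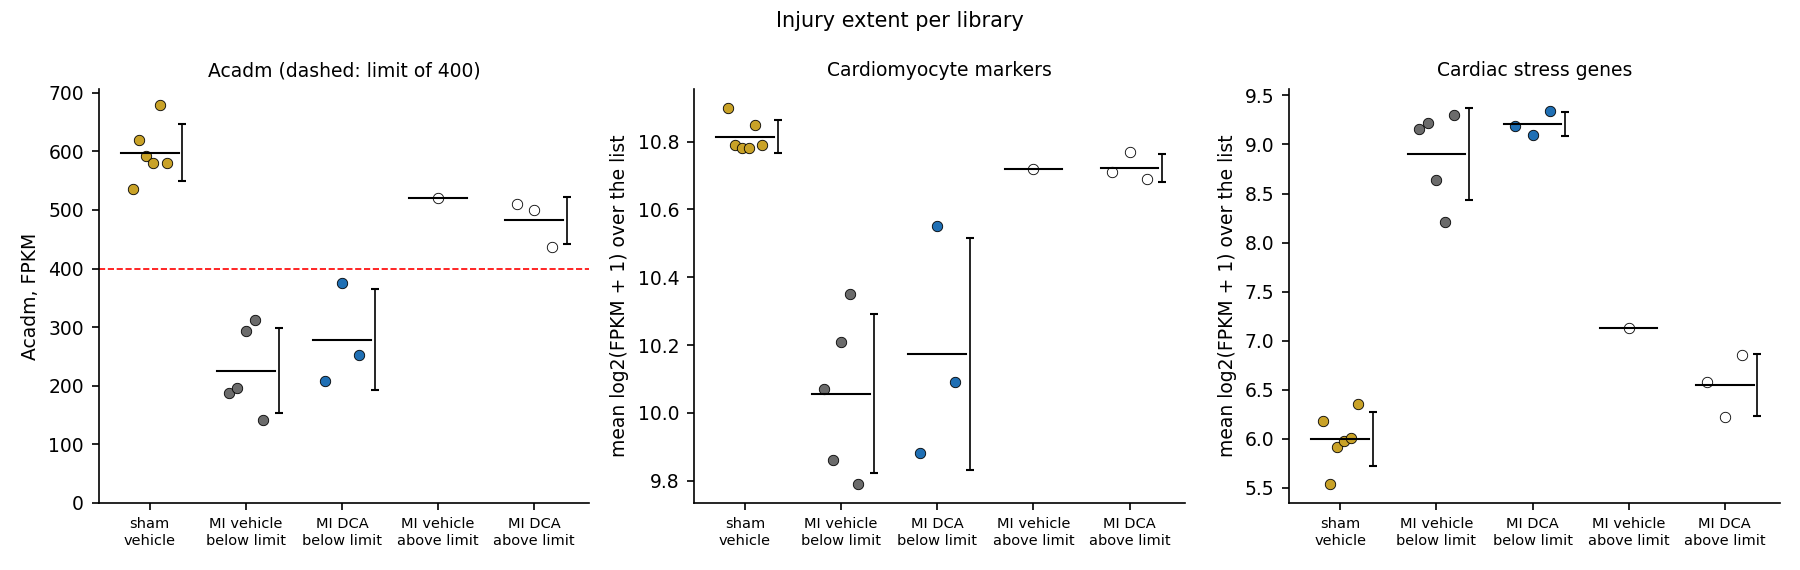
Acadm in FPKM and the mean log2(FPKM + 1) of the cardiomyocyte and cardiac stress lists, one point per library, with the group mean (line) and SD (bar). Open points are infarcted hearts above the Acadm limit of 400; the 8 filled infarcted hearts lie at 8.21 or more on the stress list and the open ones at 7.13 or less.

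The 8 libraries had an estimated 10800000 to 13000000 mapped reads each, 11300000 to 13000000 in the vehicle hearts and 10800000 to 12100000 in the DCA hearts, and 15800 to 16229 genes above 0. Between pairs of the 8, Pearson's r across genes, on log values, was 0.984 to 0.995. In a principal component analysis of the 8, the first component held 39% of the variance; DCA heart 4 (25.6) and vehicle heart 5 (23.6), the hearts of highest Acadm in each group, were at one end and vehicle hearts 2 (-20) and 6 (-18.4) at the other. The second component held 21.9%, and there the groups did not overlap: the DCA hearts lay between -20.7 and -6.6 and the vehicle hearts between 1.8 and 14.9.

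No gene passed the test. Of 12209 genes tested with limma on log2(FPKM + 1), 0 had a p under 0.05 after Benjamini-Hochberg adjustment (0.00%), and the smallest adjusted p was 0.238. At an unadjusted p under 0.05, 195 genes were higher in the DCA hearts (1.60%) and 1154 lower (9.45%). The DCA hearts lay wholly above the vehicle hearts in 152 genes (1.24%) and wholly below them in 766 (6.27%). The median log2 fold change over all genes was -0.07, 68.2% of the fold changes were negative, and 31 genes had a fold change of at least 1 in size on the log2 scale. This excess of lower genes depended on the scaling: lower genes made up 85.5% of those with an unadjusted p under 0.05 as deposited, 47.0% after median-ratio scaling between libraries and 44.6% after quantile normalization, with shifts of 0.08 and 0.09 in the median over all genes. Fold changes below are as deposited, and those of a list are read against the median of -0.07.

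All 12 infarcted hearts, compared by label with no choice by Acadm, gave 0 called genes of 12004 (0.00%), with a smallest adjusted p of 0.301. There 192 genes were higher (1.60%) and 1107 lower (9.22%) at an unadjusted p under 0.05. The 8 hearts are part of the 12, so the 2 sets of values stand side by side below with no test between them.

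The genes of class II antigen presentation made up 4 of the 10 lower genes of smallest p with a mean of at least 5 FPKM. Class II molecules are pairs of an alpha and a beta chain on the surface of dendritic cells, macrophages and B cells, where they show peptides to helper T cells; CIITA drives the transcription of their genes, and cyclic AMP is one of the signals known to act on them. H2-Aa (alpha chain), H2-Ab1 (its beta chain) and H2-Eb1 (the beta chain of the related I-E molecule) lie side by side on chromosome 17, at 34282744 to 34287823, 34263227 to 34269418 and 34305867 to 34316674 in GRCm38. The 150 bases before the start of 3 genes of the group are shown because they hold the short conserved elements through which class II genes are read together. The sequences are from RefSeq (GRCm38.p6), 5′ to 3′ in the direction of the gene, with capitals for the motifs searched.

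H2-Aa, chr17:34287824-34287973, minus strand: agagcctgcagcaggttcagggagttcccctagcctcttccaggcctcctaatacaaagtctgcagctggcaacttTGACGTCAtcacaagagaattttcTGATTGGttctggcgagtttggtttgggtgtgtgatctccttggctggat
H2-Eb1, chr17:34305717-34305866, plus strand: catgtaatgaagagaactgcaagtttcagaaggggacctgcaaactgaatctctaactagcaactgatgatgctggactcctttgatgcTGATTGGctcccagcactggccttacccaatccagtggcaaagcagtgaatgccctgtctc
H2-DMb1, chr17:34153041-34153190, plus strand: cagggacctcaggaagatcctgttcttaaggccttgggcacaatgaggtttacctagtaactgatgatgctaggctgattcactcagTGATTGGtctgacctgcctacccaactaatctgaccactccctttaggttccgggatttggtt

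The capitals TGATTGG mark the Y box, a CCAAT element read in reverse, which begins 50, 61 and 63 bases before the start in H2-Aa, H2-Eb1 and H2-DMb1. TGACGTCA, the cyclic AMP response element, begins 74 bases before the start of H2-Aa. Each was searched on both strands (CCAATCA is the reverse of the first; the second reads the same on both), and the 2 motifs do not overlap. Of 10 class II genes considered, 7 had a promoter entry; 6 of them held the Y box and 1 the response element. Over all 32851 promoter windows of the same 150 bases, 5.71% held the Y box and 1.36% the response element. A match is a description of the letters and not of binding in these hearts.

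H2-Aa stood at 69.18, 65.56, 74.81, 70.85 and 72.61 FPKM in the vehicle hearts and at 48.63, 50.55 and 42.23 in the DCA hearts. Every DCA heart was below every vehicle heart. The means were 70.6 ± 3.51 (SD, n = 5) and 47.1 ± 4.36 (SD, n = 3). The log2 fold change was -0.58 (SE 0.09), with an unadjusted p of 0.000106 and an adjusted p of 0.238 in limma. The DCA values lay within the sham range of 38.28 to 62.21, and the vehicle values above it.

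H2-Ab1 repeated this order, with 64.21, 64.44, 71.9, 68.57 and 69.99 FPKM in the vehicle hearts against 47.61, 51.82 and 42.62 in the DCA hearts (log2 fold change -0.51, SE 0.09, adjusted p = 0.238). H2-Eb1 was lower in level, with a mean of 30 ± 2.74 (SD, n = 5) against 19.5 ± 0.969 (SD, n = 3), and its groups did not overlap either. Cd74, the invariant chain that guides class II molecules to the endosome, was at 188.66, 209.37, 195.32, 201.42 and 226.36 FPKM in the vehicle hearts and at 141.19, 152.86 and 139.35 in the DCA hearts (log2 fold change -0.49, SE 0.09, adjusted p = 0.242). The DCA hearts of all 4 genes were within the sham range, and the vehicle hearts varied little although their Acadm ran from 140.93 to 311.94.

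The genes of peptide loading were lower in mean as well. H2-DMb1 was at 9.81 to 12.39 FPKM in the vehicle hearts and 9.06 to 9.46 in the DCA hearts, without overlap. H2-DMa (8.05 to 14.39 against 5.88 to 8.44) and H2-DMb2 (2.09 to 3.81 against 0.67 to 2.12) overlapped; reads of the near-identical H2-DMb1 and H2-DMb2 may be split between them. Ciita itself, at 0.71 to 1.00 FPKM against 0.40 to 0.74, and H2-Oa and H2-Ob were below the filter on low values. Of the 10 genes, chosen as a group after their values were seen, 7 were tested; all 7 were lower with an unadjusted p under 0.05, where 9.45% of all genes were, and 5 did not overlap, where 6.27% of all genes did not. Their median log2 fold change was -0.51, against -0.42 after median-ratio scaling, -0.48 after quantile normalization and -0.54 with log2 Acadm as a covariate. With each library left out in turn it ran from -0.58 to -0.46. The count of 7 lower genes was 5 after median-ratio scaling and 5 after quantile normalization. It ran from 5 to 7 with 1 library left out. In all 12 infarcted hearts the median was -0.74. There H2-Aa stood at 22.35 to 48.46 FPKM in the DCA hearts above the limit and at 57.87 in vehicle heart 4.

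Markers of cells that carry class II were compared in the same hearts. The summed level of 14 resident macrophage markers was 379 to 563 FPKM in the vehicle hearts and 341 to 416 in the DCA hearts, and that of 22 markers of infiltrating monocytes and macrophages 727 to 1350 against 377 to 1060. The dendritic cell markers Clec9a (1.37 to 2.41 against 1.38 to 1.71 FPKM), Xcr1 (0.54 to 1.08 against 0.73 to 0.94) and Cd209a (0.20 to 1.81 against 1.13 to 2.15) overlapped. Of the B cell markers, Cd79a overlapped (1.04 to 1.44 against 0.78 to 1.51 FPKM), while Cd79b did not (0.90 to 1.31 against 0.37 to 0.82, unadjusted limma p of 0.0126). Flt3 stood at 0.62 to 0.97 against 0.39 to 0.65. The part of these cells in the class II values was not tested.

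**Figure D2:**
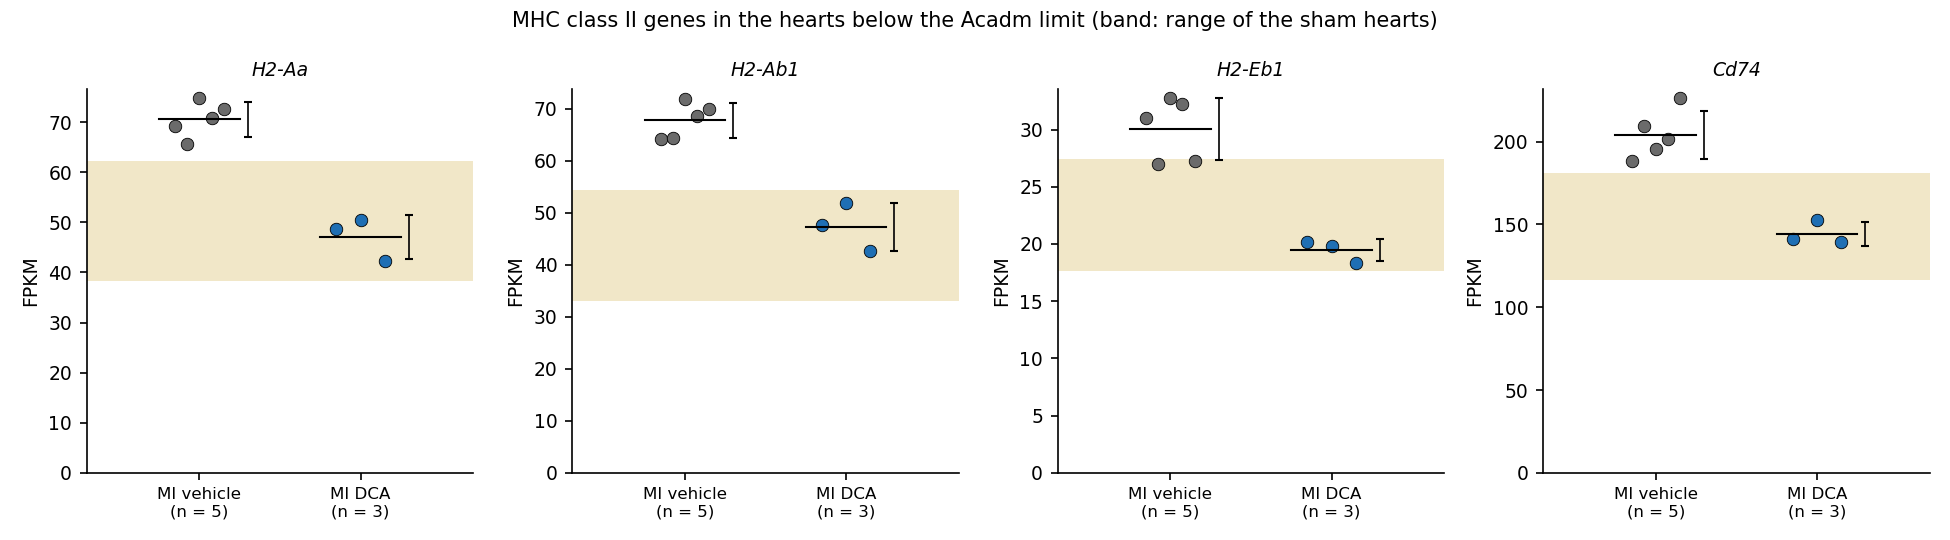
FPKM of the class II genes H2-Aa, H2-Ab1 and H2-Eb1 and of Cd74 in the 5 vehicle and 3 DCA hearts below the Acadm limit, one point per library, with mean (line) and SD (bar). In each panel all 3 DCA hearts lie below all 5 vehicle hearts and within the shaded range of the sham hearts.

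The other lower genes of smallest p were of mixed function. Maged2, a MAGE family protein, was the gene of smallest p in the whole comparison: it stood at 17.61, 16.55, 18.26, 16.68 and 18.28 FPKM in the vehicle hearts and at 11.73, 11.92 and 12.19 in the DCA hearts. The DCA hearts were thus just above the sham range of 8.40 to 11.51 FPKM. Its log2 fold change was -0.51 (SE 0.07, unadjusted p = 6.29e-05, adjusted p = 0.238 in limma). Mical1, an actin oxidase, was at 14.65 to 17.7 against 10.27 to 12.45 FPKM, with sham hearts at 5.57 to 8.26. Gpm6b, a membrane proteolipid, was at 7.64 to 9.68 against 3.81 to 5.44. Dhx57, an RNA helicase, Rabggta, a subunit of the enzyme that lipidates Rab proteins, and Pltp, the phospholipid transfer protein, completed the 10 with log2 fold changes of -0.42, -0.41 and -0.46. Not all of these genes were nearer to the sham hearts in the DCA hearts. For Pltp the DCA hearts, at 9.30 to 11.39 FPKM, were further from the sham hearts (27.83 to 37.28) than the vehicle hearts were (13.39 to 15.8). The DCA hearts of Dhx57, at 4.98 to 5.17 FPKM, lay below its sham range of 5.46 to 6.94. Those of Gpm6b reached below its sham range of 5.13 to 8.77.

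Among the 10 higher genes of smallest p with a mean of at least 5 FPKM, 2 were co-chaperones and 1 a sarcomere protein. Frmd5, a FERM domain protein of cell contacts, led with 15.5, 16.6, 15.68, 15.05 and 16.36 FPKM in the vehicle hearts and 21.35, 26.75 and 24.95 in the DCA hearts (log2 fold change 0.59, SE 0.09, adjusted p = 0.238). Its sham range was 17.64 to 33.46, so that here the DCA hearts lay within the sham range and the vehicle hearts below it. Mypn, myopalladin of the sarcomere, was at 31.02 to 37.88 against 42.35 to 47.48 FPKM. Alpk2, an alpha kinase of muscle, was at 18.63 to 23.72 against 27.99 to 35.01.

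Dnaja4, a J-domain partner of HSP70, was at 34.47 to 46.17 FPKM in the vehicle hearts and 52.69 to 61.97 in the DCA hearts, and Chordc1, a partner of HSP90, at 15.34 to 19.92 against 22.43 to 26.25. For both the DCA hearts were the furthest from the sham hearts, which stood at 29.93 to 42.86 and 12.51 to 18.37. Otulin, which removes linear ubiquitin chains, was at 24.85 to 45.12 against 57.4 to 64.23 FPKM, with sham hearts at 13.91 to 19.93. Slain2, a microtubule tip protein, Nudt14, a nucleotide sugar hydrolase, Mmaa of cobalamin metabolism and 2310002L09Rik had log2 fold changes of 0.50, 0.55, 0.31 and 0.78. In all 12 infarcted hearts the log2 fold changes of Dnaja4, Chordc1 and Otulin were 0.03, 0.11 and 0.03, and that of Frmd5 was 0.34. Those of H2-Aa and Maged2 were -0.80 and -0.52.

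**Figure D3:**
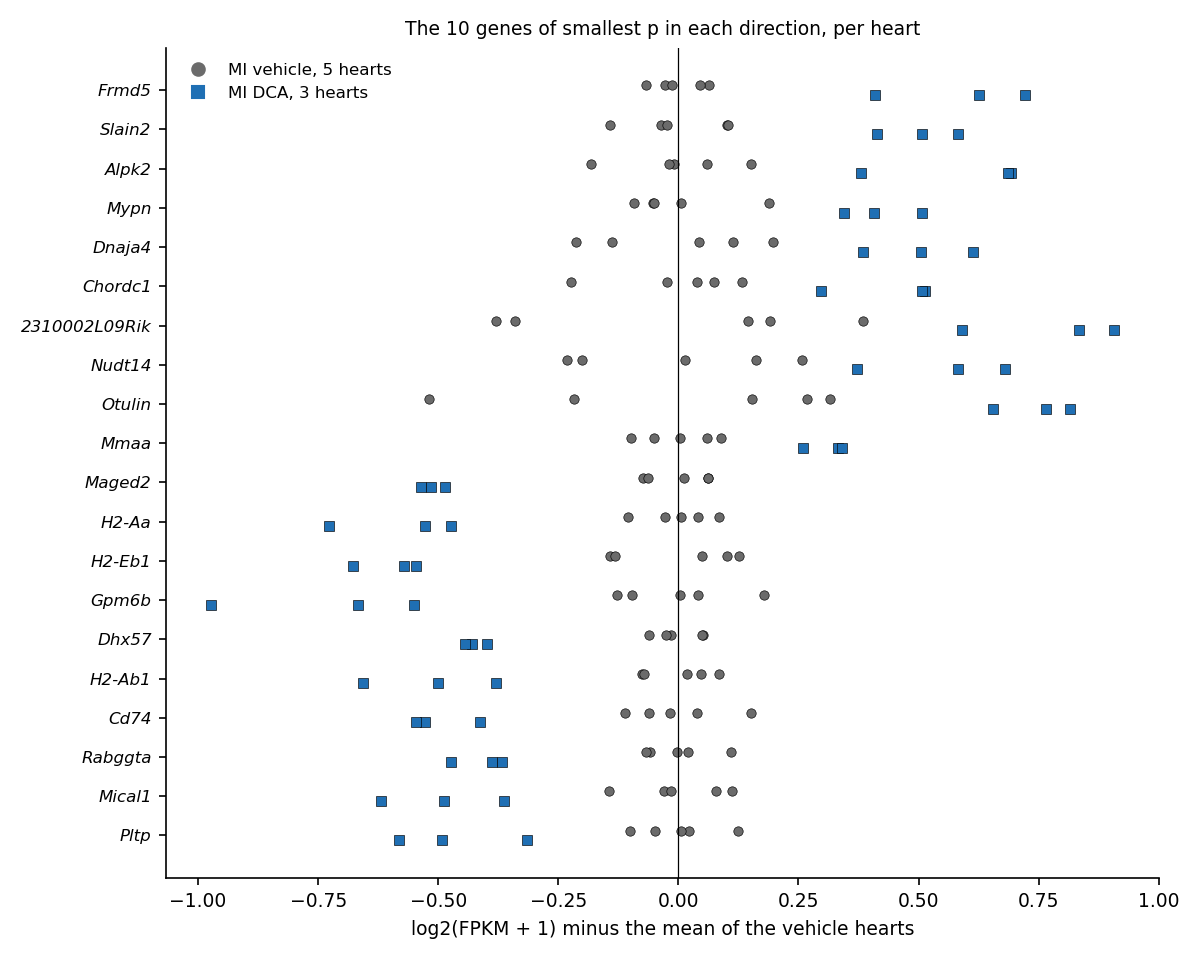
The 10 higher and 10 lower genes of smallest p among those with a mean of at least 5 FPKM. Each library is shown as log2(FPKM + 1) minus the mean of the 5 vehicle hearts (circles for vehicle, squares for DCA). None of the 20 was called. In each the 2 groups do not overlap, which the choice by smallest p favours. Of all genes tested, 1.24% were wholly higher and 6.27% wholly lower.

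Markers of fibroblasts and genes of matrix remodelling, 2 lists that share members such as Col1a1, had mostly lower means in the DCA hearts. Of 19 fibroblast markers, all tested, 19 had a negative log2 fold change, against 68.2% of all genes. An unadjusted p under 0.05 was found for 7 of them, against 9.45% of all genes, and the median was -0.42. After median-ratio scaling 18 of 19 were negative. Their summed level was 1090 to 1480 FPKM in the vehicle hearts and 784 to 886 in the DCA hearts, without overlap, against 1680 to 2040 in the sham hearts. Col3a1, a fibrillar collagen chain, stood at 210.1, 164.46, 191.12, 214.83 and 303.31 FPKM in the vehicle hearts and at 146.28, 84.4 and 129.29 in the DCA hearts (log2 fold change -0.85, SE 0.22, adjusted p = 0.314). The groups did not overlap, and vehicle heart 6 was the highest. The quiescent fibroblast genes Dpt and Lum, which help to order collagen fibres, were at 22.04 to 41.15 against 14.45 to 20.64 FPKM and at 28.59 to 55.76 against 22.55 to 29.03. The sham hearts stood at 54.4 to 76.4 and 38.18 to 64.01, so that the DCA hearts were the furthest from them. The median of the fibroblast list was -0.05 in all 12 infarcted hearts and -0.55 with log2 Acadm as a covariate.

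Of 35 genes of matrix and activated fibroblasts, 34 were tested. With an unadjusted p under 0.05, 14 were lower and 0 higher, against 9.45% and 1.60% of all genes, and the median was -0.46. The count of 14 was 10 after median-ratio scaling and 10 after quantile normalization. With log2 Acadm as a covariate 10 were lower and 3 higher, where 1637 and 627 of 12209 genes were, and the median was -0.26. Mmp3, stromelysin 1, was at 14.38, 19, 32.25, 20.63 and 23.28 FPKM in the vehicle hearts and at 10.79, 8.47 and 11.92 in the DCA hearts (log2 fold change -0.97, SE 0.22, adjusted p = 0.281). The DCA hearts were within the sham range, 5.80 to 12.76. Col1a1 was at 220.74, 177.44, 131.51, 155.42 and 286.37 against 157.37, 78.26 and 117.17 FPKM, and its groups overlapped (log2 fold change -0.72, SE 0.28, adjusted p = 0.408). Thbs2 (2.83 to 4.39 against 1.5 to 2.24 FPKM) did not overlap, and its DCA hearts were the furthest from the sham hearts (6.45 to 8.41). Some matricellular genes were not among the 14: Sparc stood at 499.81 to 766.98 against 490.54 to 749 FPKM and Ctgf at 248.8 to 650.92 against 496.26 to 641.44. The count of 14 rested on single hearts: it was 4 without DCA heart 4, 9 without DCA heart 6 and 8 without vehicle heart 6, and the median of the list ran from -0.66 to -0.26 over the 8 such fits. The fibroblast count ran from 5 to 9.

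Other stromal lists were mixed. Of 24 tested genes of TGF-beta signalling, 3 were lower with an unadjusted p under 0.05, a share near the 9.45% of all genes and so no result about the list: Fstl1, a secreted follistatin-like protein (80.33 to 124.65 against 51.64 to 68.16 FPKM), Id2, a transcription inhibitor (14.56 to 19.32 against 8.71 to 13.34), and Tgfbr2, a TGF-beta receptor (23.74 to 30.35 against 19.44 to 22.97). None of the 3 overlapped, where 6.27% of all genes were wholly lower. Of 20 endothelial markers, 10 had a positive and 10 a negative fold change, with Cldn5 of tight junctions (25.43 to 29.6 against 15.4 to 22.64 FPKM) and Vwf lower at an unadjusted p under 0.05; after median-ratio scaling 15 of the 20 were positive. Aldh1a2, which makes retinoic acid and is switched on in the injured epicardium, was at 49.82, 48.83, 42.82, 53.69 and 66.86 against 34.95, 32.49 and 37.44 FPKM, with sham hearts at 6.66 to 16.09.

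**Figure D4:**
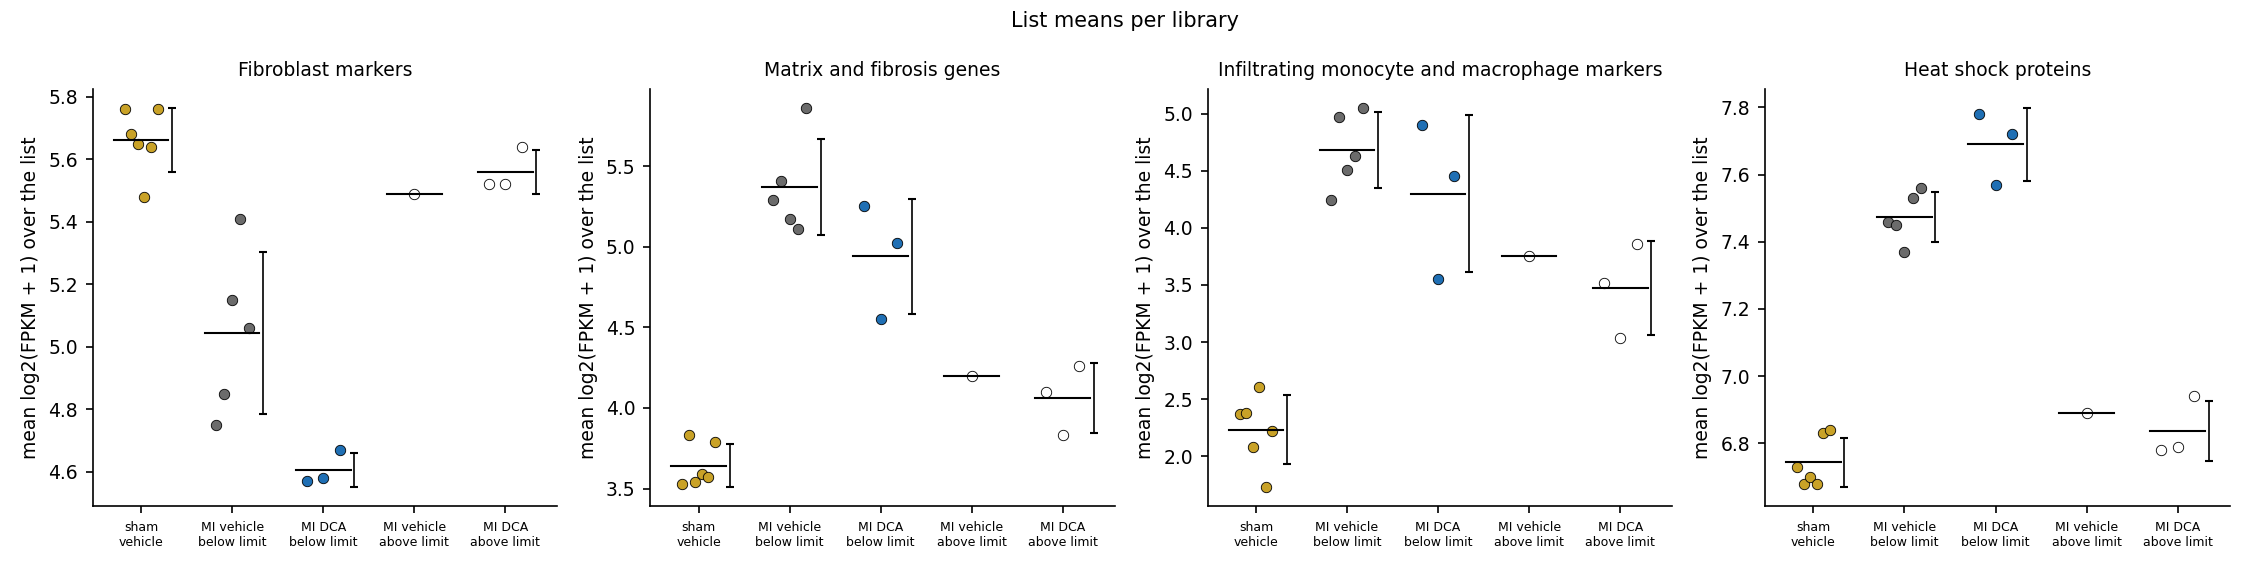
Mean log2(FPKM + 1) over 4 gene lists, one point per library, with the group mean (line) and SD (bar); open points are infarcted hearts above the Acadm limit. The 3 DCA hearts below the limit lie under all 5 vehicle hearts on the fibroblast list (4.57 to 4.67 against 4.75 to 5.41) and above them on the heat shock list (7.57 to 7.78 against 7.37 to 7.56), and overlap them on the other lists.

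The series title names the inflammatory response, and its best known cytokines varied widely between hearts of one group. Il1b, interleukin 1 beta, was at 5.37, 14.32, 34.03, 6.13 and 16.73 FPKM in the vehicle hearts and at 18.52, 3.53 and 10.45 in the DCA hearts (log2 fold change -0.42, SE 0.61, adjusted p = 0.832). DCA heart 4 was the lowest of the 8 and vehicle heart 3 the highest. Il6 was at 2.77, 2.56, 14.07, 2.28 and 10.45 against 5.02, 2.01 and 3.17 (log2 fold change -0.50, SE 0.54). Tnf was at 0.90 to 2.43 against 0.79 to 1.25, and Nlrp3, the sensor of the inflammasome, at 1.19 to 2.09 against 0.85 to 1.87. Ccl2, which draws monocytes, was at 67.78, 95.32, 80.66, 59.93 and 110.5 against 103.72, 36.86 and 96.34. All 5 overlapped and all lay above the sham hearts, where Il1b reached 1.39, Il6 0.30, Tnf 0.48, Nlrp3 0.57 and Ccl2 9.77. Without DCA heart 4 the fold changes of Il1b and Ccl2 turned positive, to 0.16 and 0.30.

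Of 22 tested proinflammatory cytokines, 20 had a negative fold change (17 after median-ratio scaling), and 1 was lower with an unadjusted p under 0.05, a share below the 9.45% of all genes: Cxcl16, at 14.38 to 22.78 against 7.97 to 17.6 FPKM. Of 23 tested genes of interleukin 1 signalling and the inflammasome, 22 were negative and 6 had an unadjusted p under 0.05, against 68.2% and 9.45% of all genes, with a list median of -0.28. The 6 were Pycard, Aim2, Irak2, Il33, Il1r1 and Ripk3. Pycard, the adaptor ASC, was at 3.75, 4.53, 4.02, 5.52 and 4.93 FPKM against 3.01, 2.25 and 3.08 (log2 fold change -0.55, SE 0.13, adjusted p = 0.303). Aim2, a sensor of cytosolic DNA, was at 3.72, 5.18, 3.8, 4.71 and 4.08 against 3.32, 2.22 and 2.10. Neither overlapped. The count of 6 was 3 without DCA heart 4 or without vehicle heart 6, 4 after median-ratio scaling, 2 after quantile normalization and 14 without DCA heart 2. Of 23 NF-kB genes, 4 were lower and 0 higher at an unadjusted p under 0.05, against 9.45% and 1.60% of all genes. The count of 4 was 0 without DCA heart 4 or without DCA heart 6, 2 without vehicle heart 6 and 8 without DCA heart 2. After median-ratio scaling it was 3, and after quantile normalization 1 gene was lower and 1 higher at that p. Of 27 interferon-stimulated genes 2 were lower, a share below the 9.45% of all genes, and 0 higher, with a median of -0.17. That direction rested on single hearts: without DCA heart 6 the list had 0 lower and 3 higher genes and a median of 0.19, and without DCA heart 2 it had 5 lower. It had 0 lower after median-ratio scaling and without DCA heart 4, vehicle heart 1, vehicle heart 2 or vehicle heart 6, and 1 without vehicle heart 5.

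Leukocyte markers had negative medians throughout: -0.39 for infiltrating monocytes and macrophages (21 of 22 negative), -0.29 for resident macrophages (13 of 13), -0.49 for neutrophils (15 of 16 tested) and -0.33 for the 4 tested markers of lymphocytes and NK cells. Those with an unadjusted p under 0.05, against 9.45% of all genes, were fewer and in the first and the third list below that share: 1 of 22 (Trem2), 3 of 13 (Cx3cr1, Folr2 and Mrc1), 1 of 16 (Mmp9) and 2 of 4 (Nkg7 and Cd79b). Cx3cr1, the fractalkine receptor of macrophages, was at 5.01, 8.85, 4.76, 7.28 and 7.63 FPKM in the vehicle hearts and at 4.25, 2.97 and 3.06 in the DCA hearts, without overlap (log2 fold change -0.78, SE 0.19, adjusted p = 0.303). Trem2, a lipid receptor of macrophages, was at 21.5, 24.9, 15.57, 24.52 and 22.65 against 18.53, 5.92 and 13.86. DCA heart 4, the heart of highest Acadm, was the lowest of the 8 for Trem2 and in its list mean for infiltrating cells (3.55 against 4.24 to 5.05 in the other 7): without it the medians were -0.07 for infiltrating monocytes and macrophages, -0.32 for resident macrophages and -0.17 for neutrophils. Counts at an unadjusted p under 0.05 ran from 0 to 6 for infiltrating cells (6 without DCA heart 2, 3 without vehicle heart 1, 2 without DCA heart 6, 0 without DCA heart 4). They ran from 2 to 7 for resident macrophages (7 without vehicle heart 3, 6 without vehicle heart 1) and from 0 to 5 for neutrophils (5 without vehicle heart 1, 0 without DCA heart 4). What part injury extent has in these lists was not tested beyond the fit with log2 Acadm, where the medians were -0.17, -0.31 and -0.31.

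S100a8 and S100a9, the calprotectin subunits of neutrophils, showed the width of the spread within a group. S100a8 was at 11.62, 121.06, 71.16, 16.19 and 48.98 FPKM in the vehicle hearts and at 41.96, 9.50 and 30.01 in the DCA hearts, and S100a9 at 18.94 to 160.14 against 17.69 to 87.84. Vehicle heart 2 was the highest of the 8 in both genes and vehicle heart 1 the second lowest, although their Acadm was alike. The neutrophil marker Ly6g stood at 0.00 to 0.68 FPKM in the vehicle hearts and 0.00 to 0.60 in the DCA hearts, and 6 of 22 neutrophil markers were below the filter. The monocyte marker Ly6c2 was highest in DCA heart 2 (77.73) and vehicle heart 2 (72.44) and lay between 11.31 and 34.47 in the other 6. Spp1, osteopontin of activated macrophages, was at 255.57, 355.64, 280.33, 297.71 and 536.94 against 348.06, 100.47 and 449. Adhesion molecules had 5 of 22 genes lower with an unadjusted p under 0.05, against 9.45% of all genes, led by Itgb7, an integrin of lymphocyte homing, at 4.09 to 4.36 against 1.69 to 3.79; the count was 1 without DCA heart 4 or without DCA heart 6, 3 without vehicle heart 5 or without vehicle heart 6, and 9 without DCA heart 2.

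Of the complement and coagulation genes, 27 were tested and 5 were lower with an unadjusted p under 0.05, against 9.45% of all genes, with a median of -0.31. Plau, urokinase, was at 17.51, 15.15, 14.85, 13.43 and 16.25 FPKM in the vehicle hearts and at 12.15, 8.07 and 7.85 in the DCA hearts (log2 fold change -0.69, SE 0.14, adjusted p = 0.265). Its partner Plat, tissue plasminogen activator, was at 14.4 to 21.59 against 10.89 to 12.29. Serping1, the inhibitor of C1, was at 48.28 to 87.43 against 39.78 to 45.98, and C1ra at 6.5 to 10.54 against 4.52 to 6.49. The groups did not overlap in any of these 4 genes, where 6.27% of all genes were wholly lower. For Plau and Plat the DCA hearts were nearer to the sham hearts (2.22 to 3.76 and 6.90 to 11.2) than the vehicle hearts were, whereas for Serping1 and C1ra they were further from them (123.94 to 169.19 and 13.2 to 16.34). C3, the central complement component, was at 16 to 47.67 against 18.11 to 20.04 and overlapped through vehicle heart 1 alone. The count ran from 4 to 8 with 1 library left out; it was 8 without vehicle heart 1.

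Heat shock proteins, which refold damaged proteins, were the list with the highest median, 0.27 over 18 tested members (0.37 after median-ratio scaling and 0.23 after quantile normalization). Of the 18, 16 had a positive fold change, where 3879 of 12209 genes did. With an unadjusted p under 0.05, 4 were higher, where 1.60% of all genes were. Dnaja1, a J-domain partner of HSP70, was at 26.8, 29.83, 25.76, 24.27 and 27.17 FPKM in the vehicle hearts and at 42.58, 31.16 and 34.53 in the DCA hearts (log2 fold change 0.41, SE 0.11, adjusted p = 0.317). Hspa8, the constitutive HSP70, was at 1221.53, 1206.06, 1086.39, 1068.95 and 1163.49 against 1336.29, 1392.85 and 1316.62. Neither overlapped, and nor did Dnajb4 (48.25 to 60.66 against 62.31 to 71.75), where 1.24% of all genes were wholly higher. The small heat shock protein Hspb6 was at 1126.53 to 1789.22 against 1767.36 to 2235.33. The strongly inducible and near-identical Hspa1a and Hspa1b were the 2 members with a negative fold change; both were highest in vehicle heart 5 (39.28 and 31.12 FPKM) and at 2.55 to 8.06 in the other 7 hearts. The count of 4 was 1 without DCA heart 6 and 2 without vehicle heart 3, 10 after median-ratio scaling, 6 after quantile normalization and 11 with log2 Acadm as a covariate. The median was 0.00 in all 12 infarcted hearts, where the DCA hearts above the limit, at a list mean of 6.78 to 6.94, were near the sham hearts (6.68 to 6.84).

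Among the cardiac stress genes, 13 of 17 had a positive fold change, where 3879 of 12209 genes did, and the median was 0.22. Without vehicle heart 5, the lowest of the 8 in the list mean, 9 were positive and 8 negative, with a median of 0.15. With each library left out in turn the median ran from 0.15 to 0.32. In the fit of all 8 hearts, 1 member was higher at an unadjusted p under 0.05, against 1.60% of all genes. Rcan1, an inhibitor of calcineurin, was at 147.85, 187.7, 130.94, 135.51 and 257.59 FPKM against 253.41, 189.19 and 355.47 (log2 fold change 0.63, SE 0.26, adjusted p = 0.432). The members did not go one way: Nppa was at 7037.03, 4234.39, 3138.68, 2902.67 and 4431.16 against 2974.66, 2964.72 and 2527.25 (log2 fold change -0.55, SE 0.27, adjusted p = 0.499), while Nppb was at 1101.92 to 3499.52 against 2365.48 to 2594.05. The median of the list was -0.56 in all 12 infarcted hearts, in which the DCA group holds 3 hearts above the limit and the vehicle group 1.

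Of 24 cardiomyocyte markers, 18 had a positive fold change, where 3879 of 12209 genes did, with a median of 0.13. At an unadjusted p under 0.05, 1 member was higher, against 1.60% of all genes. Myoz2, a calcineurin-binding protein of the Z disc, was at 596.6, 509.82, 572.39, 683.58 and 472.02 against 678.61, 927.77 and 687.96 FPKM; vehicle heart 5 overlapped DCA heart 2. Csrp3, the muscle LIM protein, was at 1331.76 to 3228.47 against 3261.4 to 3886.43 and did not overlap, where 1.24% of all genes were wholly higher. Tnnt2 and Myh6, the alpha myosin heavy chain, differed little in mean: Tnnt2 had a log2 fold change of 0.00 (SE 0.22) and Myh6 one of -0.09 (SE 0.27). The median of the list was -0.06 with log2 Acadm as a covariate and -0.04 at the lowest with 1 library left out.

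The bile acid receptors Gpbar1 and Nr1h4 were near the limit of detection. Gpbar1, the TGR5 gene, was at 0.32, 0.82, 0.18, 0.08 and 0.53 FPKM in the vehicle hearts and at 0.33, 0.56 and 0.24 in the DCA hearts, and at 0.00 to 0.20 in the sham hearts. The groups overlapped fully, and an exact permutation test, two-sided and over the 56 possible regroupings, gave p = 0.964, where the smallest p it can give is 0.0357. Nr1h4, the nuclear bile acid receptor FXR, was at 0.46, 0.30, 0.40, 0.32 and 0.24 against 0.19, 0.06 and 0.17, without overlap and with that smallest exact permutation p of 0.0357, unadjusted; every value was below 0.50 FPKM. S1pr2, a sphingosine receptor that also responds to conjugated bile acids, was at 5.34 to 8.17 against 3.46 to 6.92.

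Of 28 bile acid genes, 8 passed the filter, and all 8 had a negative fold change, against 68.2% of all genes (median -0.28). At an unadjusted p under 0.05, 2 were lower, against 9.45% of all genes. They were the hydroxylase Cyp7b1 (1.22 to 2.81 against 1.02 to 1.04 FPKM) and the exporter Abcc3 (2.27 to 4.17 against 0.97 to 1.97). With log2 Acadm as a covariate 5 of the 8 were lower (median -0.43), where 1637 of 12209 genes were. In all 12 infarcted hearts 5 of the 8 were negative and the median was -0.11. Of 21 cyclic AMP and CREB target genes in the files, 18 were tested, and none was past an unadjusted p of 0.05 in limma in either direction; 9 were positive and 9 negative, with a median of 0.03. Nr4a1, an immediate target of cyclic AMP signalling, was at 9.87, 16.8, 11.59, 8.19 and 15.81 against 17.51, 12.07 and 13.44 FPKM, and Crem at 5.32 to 7.02 against 5.86 to 6.84. H2-Aa, whose promoter holds the response element shown above, is not a member of this list.

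**Figure D5:**
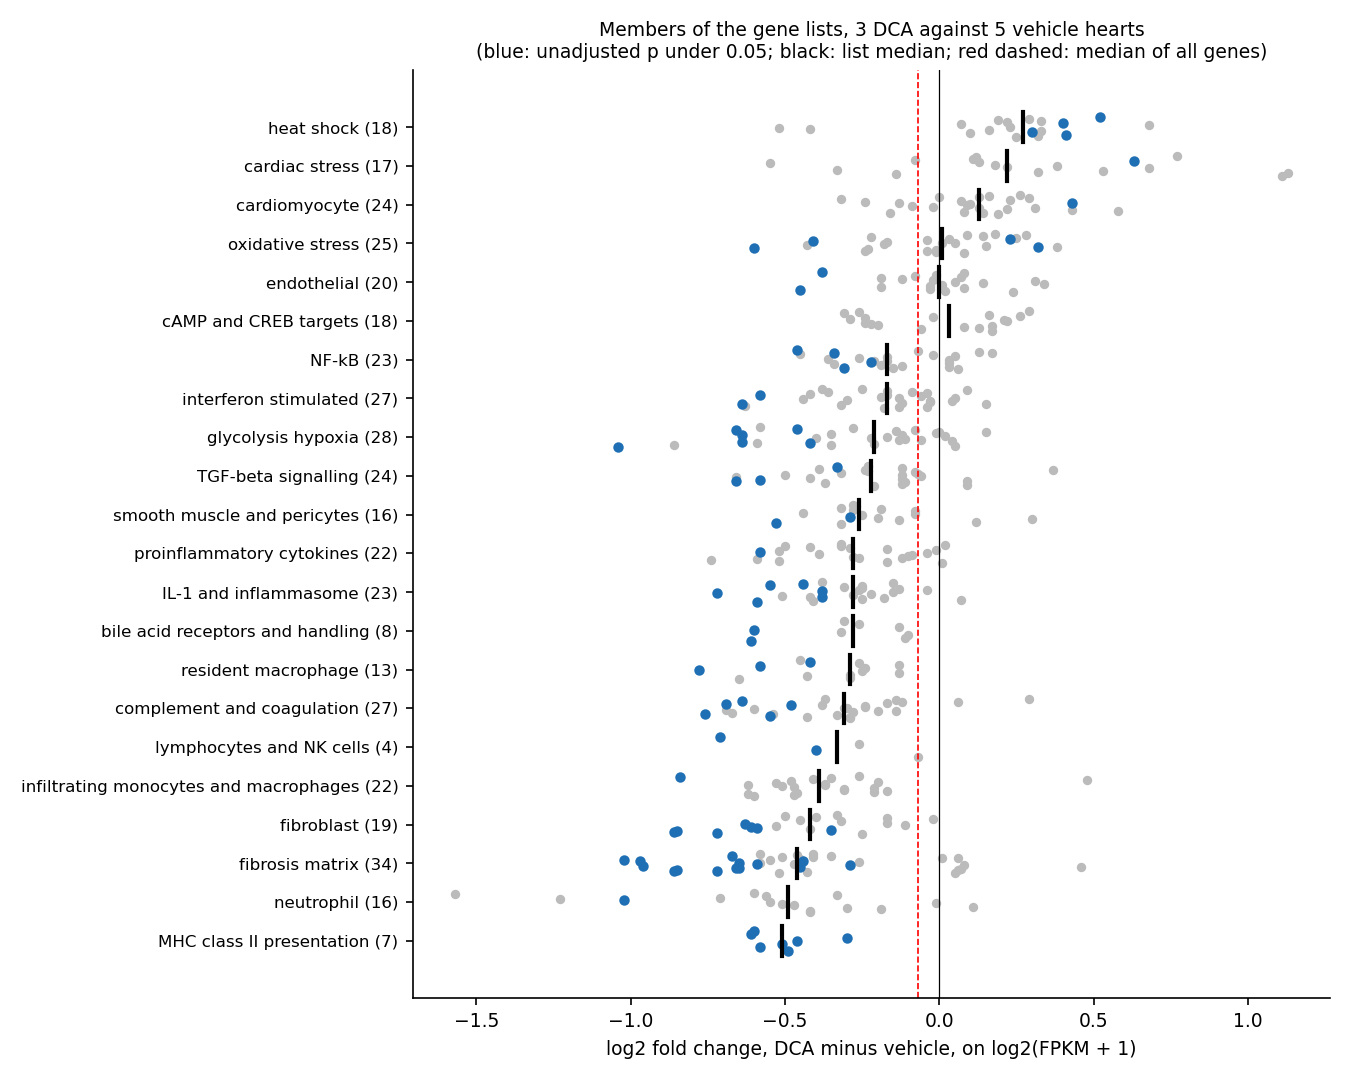
Log2 fold change of the tested members of 22 gene lists, DCA minus vehicle, with the number tested in brackets (blue, unadjusted p under 0.05; black bar, list median; red dashed line, the median of all genes at -0.07). Of the lists shown, heat shock proteins have the highest median (0.27) and class II genes, a list put together after the values were seen, the lowest (-0.51); no member was called.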

How the data were processed

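RNA-seq of the heart apex was read from the deposited FPKM values, a gene table and a transcript table for each library. Per the labels' protocols, total RNA extracted with Trizol was made into RNA Access libraries (hybrid capture of coding transcripts) and sequenced on a BGISEQ-500 as single-end 50-base reads. The FPKM values are as the authors deposited them; build GRCm38.p6, RSEM 1.2.12, Bowtie2 2.2.5 and DESeq2 1.4.5 are listed in the submitters' processing notes, which give no roles; the annotation release is not given in the sources used here. FPKM does not correct for a few abundant genes taking up reads. The gene tables hold 19197 genes, of whose IDs 99.2% matched RefSeq, and 26 symbols that had been turned into dates were restored. Depth was estimated from the step that 1 read is worth in 1847 transcripts of the transcript tables; its precision was not assessed.

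The 8 hearts were grouped by label after the choice by Acadm. Genes with at least 1 FPKM in at least 3 of the 8 libraries were tested with limma 3.58.1 in R 4.3.3 (intensity trend, 2 groups, no covariate) on log2(FPKM + 1), with Benjamini-Hochberg adjustment over all genes tested and a threshold of 0.05; fold changes on this scale understate those of low genes. All 12 infarcted hearts were fitted likewise (at least 6 libraries). Single genes below the filter were compared by exact permutation. The code was tested on simulated data. Tables and plots were made with Python 3.11.15, pandas 2.3.3, numpy 2.4.6 and matplotlib 3.10.9.

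The rule for named genes took 16 genes always, the 10 genes of smallest p with a mean of at least 5 FPKM in each direction, and the member of smallest p of each gene list; further members were named after their values were seen. The hearts, the 43 gene lists and the tests were chosen with earlier results of these data known, and the class II list after its values were seen. Alternatives were pseudocounts of 0.1 and 5, no filter and a filter of 5 FPKM, both scalings, Acadm limits of 300 and 500, log2 Acadm as a covariate, a fit of all 18 libraries, a replicate block and leaving out each library.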

Additional observations from a re-analysis of the deposited data

Results flagged for a closer look

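In 74 groups of 5 vehicle values, 1 for each named gene, 2 held a heart whose gap to its nearest neighbour, divided by the range of the group, was above Dixon's critical value of 0.71 for 5 samples; chance flags about 1 in 20 such groups. Ly6c2, a monocyte marker, stood at 72.44 FPKM in vehicle heart 2 against 19.37 to 34.47 in the other 4, a gap of 0.72 of the range. Nkg7, a granule protein of cytotoxic lymphocytes, stood at 1.62 FPKM in vehicle heart 5 against 0.98 to 1.08 in the other 4, a gap of 0.84 of the range; the DCA hearts were at 0.20 to 0.50.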

How the results depend on the processing

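With any of these alternatives the choice of the hearts by Acadm remains, except where all 12 or 18 are named. Genes higher at an unadjusted p under 0.05 numbered 311 with no filter, 303 in a fit of all 18 libraries, 314 in all 12 hearts with log2 Acadm and 627 with log2 Acadm as a covariate of the 8. Genes lower numbered 732 under a filter of 5 FPKM and 697 with an Acadm limit of 300 (4 vehicle and 2 DCA hearts). Median-ratio scaling gave 589 lower and 663 higher genes and quantile normalization 492 and 612, each with a median of 0.01. Called genes numbered 8 with the limit of 300, and 1 (Cirbp) with log2 Acadm as a covariate. Leaving out each library in turn gave 0 called genes, 638 (without DCA heart 6) to 1583 (without DCA heart 2) lower and 139 (without DCA heart 2) to 295 (without DCA heart 4) higher ones.

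Replicate numbers 2 and 6 occur in both groups, and same-numbered hearts deviated together (correlations of 0.398 and 0.236); over all 12 hearts the correlations of the 6 numbers ran from -0.446 to 0.69. Numbers 1, 3, 4 and 5 (-0.446, 0.116, -0.395 and 0.421) join a strongly affected heart with one above the limit, and 2 and 6 (0.69 and 0.672) do not. The labels tie no number to a shared source and not every number correlated, so the numbers were not treated as pairs; whether they mark one was not tested. The replicate block, which leaves 1 residual degree of freedom, called 29 genes, S100a9 (-0.93) and Acta1 (1.21) among the named ones; with it Nppb was at -0.30, Myh6 at 0.10 and Pf4 at 0.07.

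Of 71 named genes, 60 kept the direction of their log2 fold change under each alternative in which they were tested (up to 22; 1547 values in all) and 11 turned in at least 1. With the limit of 300, Ccl2 was at 0.20, Spp1 at 0.21 and Nppb at -0.10. With the limit of 500, Nppb was at -0.84, Myh6 at 0.18 and Rcan1 at -0.07. In all 12 hearts, Nppb was at -1.24 (-0.05 with log2 Acadm), Myh6 at 0.34, Rcan1 at -0.50, Sox10 at 0.10 and Btg2 at -0.14. With log2 Acadm as a covariate Ccl2 was at 0.12 and Ly6c2 at 0.02; Myh6 was at 0.00 after median-ratio scaling and Nppb at -0.02 after quantile normalization. Over the 8 fits with 1 library left out, Il1b ran from -0.90 to 0.16, Ccl2 from -0.43 to 0.30, Nppb from -0.13 to 0.29, Myh6 from -0.30 to 0.08, Spp1 from -0.83 to 0.25, Ly6c2 from -1.19 to 0.15 and S100a9 from -1.10 to 0.03. The cause of these changes was not tested. The alternatives of the gene lists were chosen after the data were seen. Values under 1 FPKM, such as those of Gpbar1, are limited by depth.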

Other observations

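Of 28 genes of glycolysis and hypoxia, 6 had lower means with an unadjusted p under 0.05, against 9.45% of all genes, and 0 had higher ones (median -0.21). The count was 1 after median-ratio scaling, 3 after quantile normalization, 2 without DCA heart 2 or DCA heart 6, 3 without vehicle heart 1, 10 without DCA heart 4 and 11 without vehicle heart 2. Slc2a1, the glucose transporter GLUT1, stood at 47.9, 37.31, 45.38, 47.64 and 74.14 FPKM in the vehicle hearts and at 36.6, 33.14 and 36.82 in the DCA hearts, and Slc16a3, the lactate exporter MCT4, at 24.55 to 65.99 against 20.29 to 23.46. Neither overlapped, where 6.27% of all genes were wholly lower. In both the DCA hearts remained above the sham hearts (7.33 to 10.45 and 1.37 to 3.12). Of 17 PPAR targets 2 were lower, a share near the 9.45% of all genes; with log2 Acadm as a covariate 10 were (median -0.64, against -0.27), and in all 12 hearts the median was 0.17. The count was 5 without vehicle heart 2 and 1 without DCA heart 2. The members were Plin2, a lipid droplet coat protein, at 65.93 to 101.27 against 54.75 to 62.43, and Angptl4, an inhibitor of lipoprotein lipase, at 31.56 to 83.22 against 21.39 to 43.51. Of 20 angiogenesis genes 3 were lower, led by the lymphatic growth factor Vegfd (3.37 to 4.3 against 2.13 to 2.39 FPKM, sham hearts 4.49 to 5.42).

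Small and opposite differences stood in other lists, counted at an unadjusted p under 0.05, where 1.60% of all genes were higher and 9.45% lower. Of 17 circadian genes 2 were higher, Nr1d1 (31.37 to 35.58 against 37.31 to 49.19 FPKM) and Bhlhe41 (10.35 to 11.53 against 11.88 to 13.92). Of 25 genes of oxidative stress 2 were higher, the glutathione transferase Gsta4 (46.25 to 55.73 against 56.53 to 70.05) and Prdx6, and 2 lower, Osgin1 and Gpx3. Manf was higher and Trib3 lower among 24 genes of the unfolded protein response. Lower members numbered 2 of 16 for smooth muscle and pericytes (Kcnj8 and Acta2), 2 of 3 for the epicardium (Aldh1a2 and Krt19), 2 of 24 for apoptosis, 2 of 21 for the resolution of inflammation, 1 of 25 for the cell cycle, 1 of 16 for the glucocorticoid response and 1 of 4 for sex-linked genes. Apart from the epicardium and sex-linked genes, with 3 and 4 tested members, these shares are near or below the 9.45% of all genes. Apoptosis and the cell cycle had 7 lower members each without DCA heart 2 and 0 each without DCA heart 4, where the median of the cell cycle was 0.05 against -0.31. The dendritic and mast cell list had 4 of 6, all of them class II genes. Immediate early genes (20), ion channels (25), and markers of red cells (5), platelets (2), Schwann cells (4), atrium (3) and skeletal muscle (3) had 0 members past an unadjusted p of 0.05 in limma in either direction.

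Cirbp, a cold-inducible RNA-binding protein, was the gene called by limma when log2 Acadm was a covariate (log2 fold change -1.32, SE 0.08, adjusted p = 0.00118), against -1.03 (adjusted p = 0.31) without it. It stood at 19.56, 21.45, 31.3, 35.83 and 17.26 FPKM in the vehicle hearts and at 8.29, 15.99 and 10.93 in the DCA hearts, without overlap. The sham hearts lay at 35.72 to 46.16, vehicle heart 4 at 27.33 and the DCA hearts above the limit at 30.31 to 35.3.

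The 8 genes called with the Acadm limit of 300 were chosen here after their values were seen: 7 carry the symbols of predicted Gm genes and 7 were lower in the DCA hearts. Cnbd2, the exception in name, stood at 111.47, 114.68, 113.15 and 117.8 FPKM in vehicle hearts 1, 2, 3 and 6 and at 27.21 and 21.09 in DCA hearts 2 and 6. The hearts that the lower limit leaves out lay between them, vehicle heart 5 at 34.35 and DCA heart 4 at 77.32. Gm43828 followed the same order, at 31.5 to 32.43 in those 4 vehicle hearts, 5.29 and 3.59 in DCA hearts 2 and 6, and 6.04 and 11.52 in the hearts left out. Among the sham hearts, all given vehicle, Cnbd2 ran from 30.05 to 77.34 and Gm43828 from 4.29 to 26.21. Whether reads of such predicted genes are shared with other copies was not tested.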
